A study of Rattus norvegicus with 13 samples.

Results

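Cd27, Cd40, Tnfrsf8 (CD30) and Tnfrsf11a (RANK) are members of the tumour necrosis factor (TNF) receptor family that lack a death domain. They were taken by symbol from the array's platform annotation by a rule that uses no measured value, although earlier results of these data were known when the group was proposed, and make up 4 of the 96 gene probes. RNA came from the septal coronary arteries, vessels that supply the wall between the ventricles, of F344 rats, an inbred strain much used in ageing research. Total RNA from rats aged 26 months was measured on 6 arrays (aged) and from rats aged 3 months on 7 arrays (young), with no treatment or genotype given in the labels. Per the labels, the aged vessels had also shown more endothelial cell death in TUNEL and DNA fragmentation assays. Values are linear ratios in which beta-actin on that array equals 1, rounded to 2 decimals, and blank cells were kept as missing. Nothing in the labels ties an array to an animal of its own, so p-values measure the spread between arrays, which may be technical.

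TNF receptors of this kind are clustered by a trimeric ligand and recruit TRAF adaptor proteins to their short cytoplasmic tails, which switches on NF-kB and MAP kinase signalling instead of the death pathway of Fas or Tnfrsf1a. Cd27 and Tnfrsf8 are known from lymphocytes, where Cd27 supports T and B cell survival and Tnfrsf8 appears upon activation. Cd40 is best known from B cells, dendritic cells and macrophages, and endothelial cells can also carry it. Tnfrsf11a drives the formation of osteoclasts from myeloid precursors and has also been described in endothelium.

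Across the arrays, 52 to 80 of the 96 gene probes had a value, and 15 probes had one on all 13 arrays. The mean log2 ratio of those probes other than Tnfrsf11a, here called the array level, ran from -0.76 to 0.05 on the aged and from -2.60 to 0.05 on the young arrays. It tended to rise with the replicate number, from -2.60 on young replicate 1 to 0.05 on young replicate 7. On the aged arrays it went from -0.76 on replicate 1 to 0.05 on replicate 6, with replicate 4 (-0.53) below replicate 3 (-0.05). The labels do not say what the numbers stand for, and their part in the level was not tested. The pair of beta-actin spots on an array differed by 0 to 36% of their mean. Of 41 marker genes listed for T cells, B cells, macrophages, osteoclasts, other leukocytes, endothelium, smooth muscle, fibroblasts and cardiomyocytes, 0 were on the array. The cell makeup of the vessels and the identity of the tissue could therefore not be checked, and a change in the number of cells of a type cannot be told apart from a change of RNA per cell.

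None of the 4 receptors differed between the ages past the threshold. By limma on log2 ratios, 0 of the 4 had an adjusted p under 0.05, against 1 of all 70 probes tested (1.43%), the cytokine gene Tnf. At an unadjusted p under 0.05 there was 1 of the 4, Cd27, against 4 of the 70, and an exact permutation test with adjustment over the 70 called 0 of the 4 as well. The log2 difference, aged minus young, was positive for Tnfrsf11a and negative for the other 3, with a median of -0.53 over the 4 and 0.06 over all 70 probes tested. The positive sign was not particular to Tnfrsf11a. Of the 15 probes without a blank, the only negative one was Traf4 (-0.10). Tnfrsf11a (0.55) lay above Traf4, Casp8 (0.03) and Tnfrsf1b (0.30) and below the rest of the 15, which ran from Tnfrsf25 (0.61) to Casp9 (1.61). The other 3 receptors had blanks, so their contrast in sign with Tnfrsf11a is also one between probes with and without blanks.

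**Figure D1:**
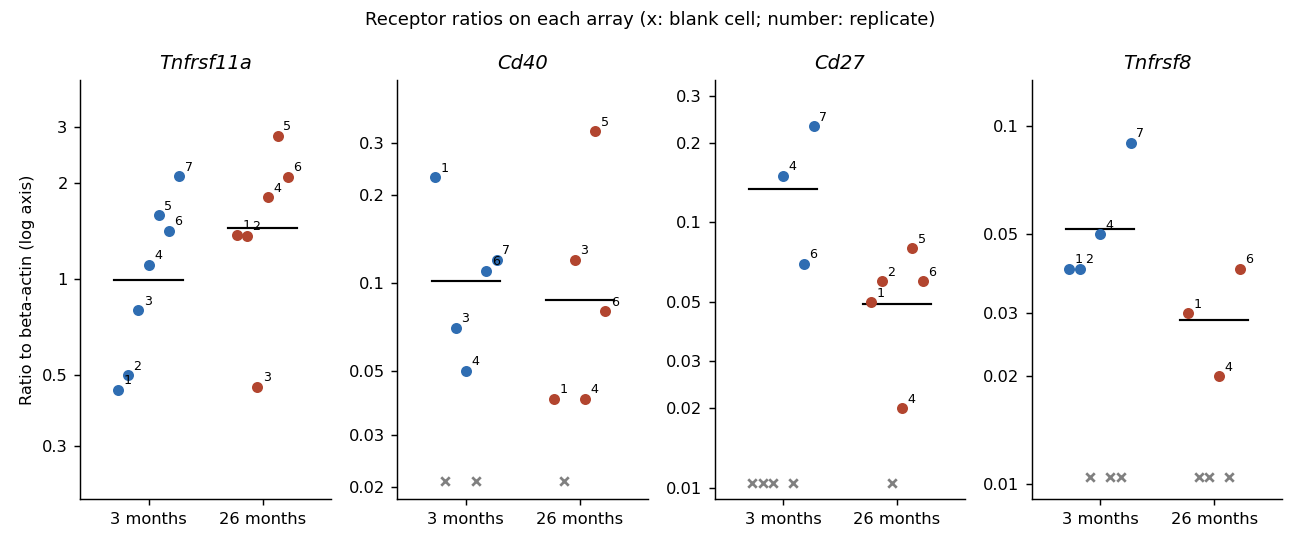
Ratio to beta-actin (log axis) of each receptor on the 7 young (blue) and 6 aged (red) arrays. Numbers are replicates, bars are geometric means of measured arrays, and grey crosses mark blank cells. Tnfrsf11a has a value on all 13 arrays, Cd40 on 10, Cd27 on 8 and Tnfrsf8 on 7.

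Tnfrsf11a, the receptor of osteoclast formation, was the only one of the 4 measured on every array. Its ratios in aged arteries had a lowest value of 0.46, a median of 1.595 and a highest value of 2.82. Those in young arteries had a lowest value of 0.45, a median of 1.11 and a highest value of 2.11. The age groups overlapped over most of their range, and 1 aged array, replicate 3 at 0.46, lay beside the lowest young ones. The means were 1.66 ± 0.80 (SD, n = 6) and 1.14 ± 0.61 (SD, n = 7), a 1.46-fold difference that did not pass (log2 difference 0.55, SE 0.52, 95% interval -0.53 to 1.62, adjusted p = 0.86 by limma). The sign of this difference depended on the scaling of the arrays. It was -0.26 (95% interval -1.12 to 0.61) after centring each array on the 15 probes measured everywhere and -0.06 (-0.95 to 0.84) after quantile normalization. Those scalings moved the median of all 70 probes from 0.06 to -0.69 and to -0.03, and the split of higher against lower probes from 40 and 30 to 13 and 57 and to 34 and 36, so Tnfrsf11a lay above the median in the first and just below it in the second. Young replicates 1 and 2 had the lowest array levels, and with both left out the difference was 0.12 (-0.94 to 1.19).

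The Tnfrsf11a ratio moved with the array level, as did those of most other probes measured on every array. Against the mean log2 ratio of the other 14 probes measured everywhere, its Pearson r was 0.694 over 13 arrays (permutation p = 0.0077, adjusted p = 0.031 over the 4 receptors) and its Spearman rho was 0.753 (permutation p = 0.0041, adjusted p = 0.016). Within the 7 young arrays r was 0.958 (exact permutation p = 0.0002) and rho was 1 (exact permutation p = 0.0004). On those arrays both the level and Tnfrsf11a tended to rise with the replicate number, Tnfrsf11a from 0.45 on replicate 1 to 2.11 on replicate 7. Within the 6 aged arrays r was 0.05 (exact permutation p = 0.96) and rho was 0.543 (exact permutation p = 0.30). Without the pair of arrays farthest from the median level, young replicates 1 and 2, and with aged replicate 3 kept, the r over all arrays was 0.355. Within the young arrays, r without the 2 farthest was 0.970. Each of the 15 probes measured everywhere was set against the mean of the other 14. By r, Tnfrsf11a ranked 12 over 13 arrays and 2 within the young arrays. Over 13 arrays r ran from -0.035 (Traf4) to 0.930 (Bcl2), and within the young arrays from 0.041 (Traf4) to 0.980 (Bik). The other 3 receptors had r of 0.140 (Cd27), -0.046 (Cd40) and 0.160 (Tnfrsf8) with the level over 8, 10 and 7 arrays, and rho of 0.02, 0.256 and 0.04 (permutation tests, adjusted p = 0.90 for each r). Both axes share the beta-actin signal as denominator, which was not separated from the expression of the genes.

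Aged replicate 3 was the array that departed from this relation. Relative to the level, log2 Tnfrsf11a was -1.07 there, against 1.02 to 1.45 on the other 5 aged arrays and 0.81 to 1.44 on the 7 young arrays. Of the 15 probes measured everywhere, Tnfrsf11a was the one that lay furthest below its own mean of the other aged arrays on that array, by -2.31 on the log2 scale. The next were the death receptors Tnfrsf25 and Tnfrsf21, at -0.99 and -0.71. Other probes departed upward on that array, furthest Traf4 by 2.10, Gadd45a by 1.13 and Casp9 by 1.07, so its departures were not confined to Tnfrsf11a or to 1 direction. Over all 13 arrays, the r of Tnfrsf11a with the level ranked only 12 among the 15 probes. Without aged replicate 3, an array set aside after its value was seen, r was 0.962 over 12 arrays. Its permutation p was 1e-05, the smallest that 100000 resamples can give, and this r was the highest among the 15 probes. Both are descriptive, since the array was chosen by its departure for Tnfrsf11a and not for the other probes. Relative to the level, Tnfrsf11a then averaged 1.23 ± 0.19 in 5 aged arrays and 1.12 ± 0.25 in 7 young arrays (means ± SD), a log2 difference of 0.11 (exact permutation p = 0.41). With aged replicate 3 included, the difference was -0.27 (exact permutation p = 0.71).

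**Figure D2:**
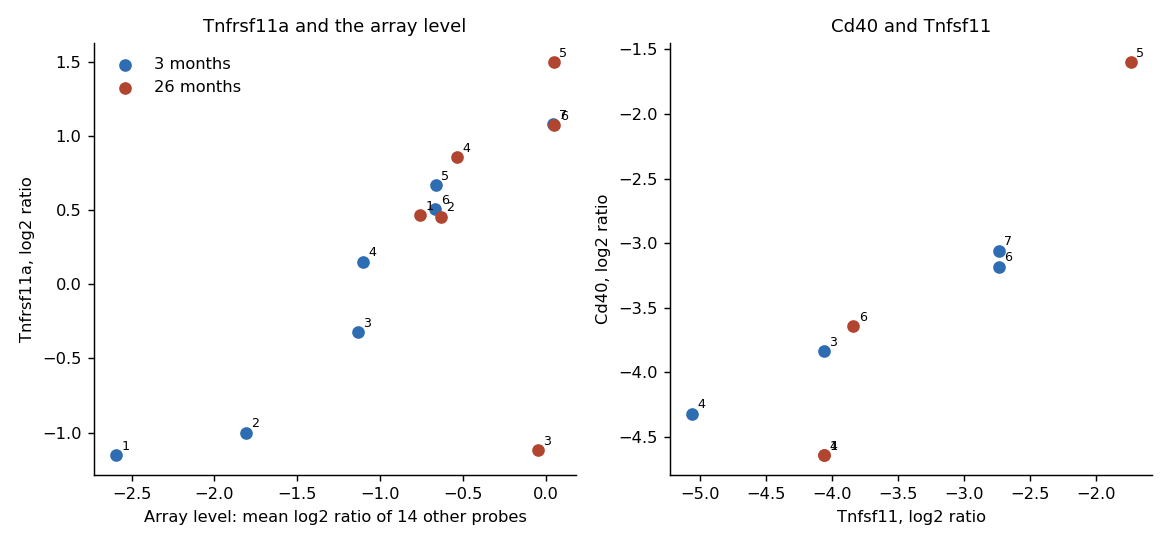
Left, log2 ratio of Tnfrsf11a against the array level, the mean log2 ratio of the 14 other probes measured on every array, for 7 young (blue) and 6 aged (red) arrays; 12 arrays lie along a rising line and aged replicate 3 lies far below it. Right, log2 ratio of Cd40 against that of Tnfsf11 on the 8 arrays with both values, with aged replicate 5 at the upper right (aged replicates 1 and 4 coincide).

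Cd40, the receptor for the helper T cell ligand Cd40lg, had a value on 5 of 6 aged and 5 of 7 young arrays. In aged arteries its ratio was 0.04, 0.12, 0.04, 0.33 and 0.08 on replicates 1, 3, 4, 5 and 6. In young arteries it was 0.23, 0.07, 0.05, 0.11 and 0.12 on replicates 1, 3, 4, 6 and 7. The groups overlapped, with aged replicate 5 the highest of all and young replicate 1 next. The means were 0.122 ± 0.121 and 0.116 ± 0.070 (SD, n = 5 and 5), with a log2 difference of -0.21 (SE 0.64, 95% interval -1.55 to 1.13, adjusted p = 0.96 by limma). The linear means and the log2 means thus differed in sign. The interval holds differences of more than 2-fold in either direction, so these arrays do not show that Cd40 was alike at both ages. The log2 difference turned positive, to between 0.07 and 0.08, when aged replicate 1, aged replicate 4 or young replicate 1 was left out, and was -0.69 without aged replicate 5. Scaling moved it further from 0, to -0.45 (95% interval -1.82 to 0.93) with reference genes centred, -0.60 (-2.03 to 0.83) by quantile normalization and -1.03 (-2.54 to 0.47) with centring on the 15 probes, none of which passed.

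Cd27, the receptor for Cd70, had the largest of the 4 differences on the deposited ratios and the most uneven blanks. With centring on the 15 probes Tnfrsf8 had a larger one, -1.80 against -1.66, and with blanks at 0.01 so did Tnfrsf11a and Tnfrsf8. In aged arteries its ratio was 0.05, 0.06, 0.02, 0.08 and 0.06 on replicates 1, 2, 4, 5 and 6. In young arteries it was 0.15, 0.07 and 0.23 on replicates 4, 6 and 7. The measured young ratios were higher, but the groups overlapped, since young replicate 6 lay below aged replicate 5. The means were 0.054 ± 0.022 (SD, n = 5) and 0.150 ± 0.080 (SD, n = 3), 2.73-fold higher in young arteries on the log2 means (log2 difference -1.45, SE 0.68, 95% interval -2.87 to -0.03, unadjusted p = 0.046, adjusted p = 0.64 by limma). An exact permutation test on the 8 arrays gave p = 0.036, and an adjusted p of 0.42 over the 70 probes.

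Detection of Cd27 ran the other way from its level. It had a value on 5 of 6 aged arrays and on 3 of 7 young arrays, 40.5 percentage points more often in aged arteries (Fisher's exact p = 0.27, adjusted p = 1 over the 96 probes). The gap was not particular to Cd27. Bcl2l11 and Casp1 had the same one, the widest was 71.4 (probe 20), and the widest the other way was -40.5 (Tnfrsf4). The level comparison leaves out the 4 blank young arrays, so its sign depends on what those blanks stand for. With every blank set to 0.01, the smallest deposited ratio, the log2 difference was 0.31 (95% interval -1.43 to 2.05, adjusted p = 0.99 by limma). With the blanks at 0.23, the gene's own highest ratio, it was -1.52 (-2.62 to -0.43, adjusted p = 0.20 by limma). Rounding alone allowed -1.69 to -1.23. Leaving out young replicate 7, the highest, left 2 young values, too few for the test, and a difference of -1.06.

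Tnfrsf8, the receptor of activated lymphocytes, was the most often blank of the 4 and had ratios near the smallest that the rounding can hold. In aged arteries it was 0.03, 0.02 and 0.04 on replicates 1, 4 and 6. In young arteries it was 0.04, 0.04, 0.05 and 0.09 on replicates 1, 2, 4 and 7. The groups met at 0.04, and the highest value was that of young replicate 7. The means were 0.030 ± 0.010 (SD, n = 3) and 0.055 ± 0.024 (SD, n = 4), with a log2 difference of -0.84 (SE 0.68, 95% interval -2.26 to 0.57, adjusted p = 0.86 by limma). Each deposited ratio is known only to within 0.005, and at the edges of that step the difference would be anything from -1.27 to -0.45. It was -0.59 with blanks at 0.01 and -0.58 without young replicate 7. It was -1.16 (95% interval -2.51 to 0.20) with reference genes centred and -1.80 (-3.08 to -0.52, adjusted p = 0.18 by limma) with centring on the 15 probes, which moved the median of all probes to -0.69. It had a value on 3 of 6 aged and 4 of 7 young arrays (Fisher's exact p = 1).

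By Fisher's exact test of arrays with a value against blanks, 0 of the 4 receptors and 0 of all 96 gene probes (0%) passed the adjustment, and 2 of the 96 had an unadjusted p under 0.05. Between 1 receptor (young replicate 5) and 4 receptors (aged replicates 1, 4 and 6, and young replicates 4 and 7) had a value on an array. Arrays on which a receptor was blank tended to hold fewer values in all. The arrays without Cd27 held 52 to 60 gene probes with a value and those with Cd27 held 54 to 80. For Cd40 the ranges were 52 to 60 and 54 to 80, and for Tnfrsf8 they were 52 to 69 and 54 to 80. The part of this overall detection in the blanks of single receptors was not tested. Cd27 and Tnfrsf8 were both measured on 5 arrays and both blank on 3.

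**Figure D3:**
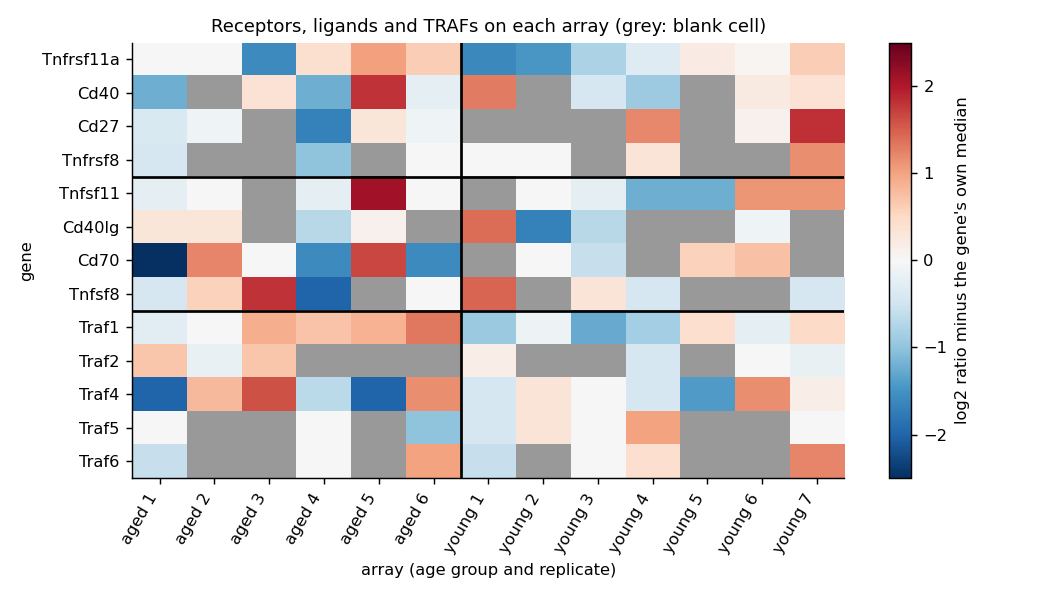
Log2 ratio of the 4 receptors, their 4 ligands and 5 TRAF genes on each array, minus the gene's own median over measured arrays (red higher, blue lower, grey blank); black lines part the age groups and the gene groups. Tnfrsf8, Traf5 and Traf6 have values on nearly the same arrays, and Cd40, Tnfsf11 and Cd70 are highest on aged replicate 5.

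Of the TRAF genes with blanks, Traf5 and Traf6 matched the blanks of Tnfrsf8 more often than Traf2 did. Over the 13 arrays, Traf5, an adaptor of Cd27, Cd40 and Tnfrsf8 signalling, had the same status as Tnfrsf8 (value or blank) on 12, the closest match among the other 95 probes. Traf6, the adaptor by which Tnfrsf11a and Cd40 engage NF-kB, and Bcl2l1, an anti-apoptotic gene of the Bcl-2 family, matched on 11. Traf2 matched on 7, as did the median probe. For Cd27 and for Cd40, the closest match of any probe was 11 arrays and the median 8, so a match of 11 was not particular to Tnfrsf8. Traf1 and Traf4 had a value on all 13 arrays, so their match of 7 was fixed by the number of Tnfrsf8 values. Traf5 ratios were 0.02 to 0.08 and Traf6 ratios 0.02 to 0.07. This likeness was looked for after the values had been seen and carries no test.

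The ligands of the 4 receptors were each on the array, and 0 of 4 passed limma. Tnfsf11 (RANKL), the osteoclast factor that binds Tnfrsf11a, had ratios of 0.06, 0.07, 0.06, 0.30 and 0.07 on aged replicates 1, 2, 4, 5 and 6. On 6 young arrays it ran from 0.03 to 0.15. The log2 difference was 0.41 (95% interval -0.84 to 1.66, adjusted p = 0.91 by limma), and the aged mean of 0.112 ± 0.105 (SD, n = 5) leaned on replicate 5. Cd40lg, the T cell and platelet ligand of Cd40, ran from 0.04 to 0.08 on 4 aged and from 0.02 to 0.17 on 4 young arrays (log2 difference 0.28). Cd70, the ligand of Cd27, ran from 0.01 to 0.19 on 6 aged and from 0.04 to 0.10 on 4 young arrays (log2 difference -0.66). Tnfsf8, the ligand of Tnfrsf8, ran from 0.01 to 0.14 on 5 aged and from 0.03 to 0.11 on 4 young arrays (log2 difference -0.24). Each ligand overlapped between the ages, and limma gave adjusted p-values between 0.86 and 0.96. Tnfrsf11b (osteoprotegerin), the soluble decoy that keeps Tnfsf11 from its receptor, had a value of 0.04 on 1 aged array and of 0.02 and 0.05 on 2 young arrays, too few for a test.

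No receptor was shown to follow its own ligand across arrays. Tnfrsf11a and Tnfsf11 had a Pearson r of 0.445 and a Spearman rho of 0.465 over 11 arrays (permutation p = 0.17 and 0.15), and r was 0.344 without the arrays farthest from the median. For the other 3 pairs, each over 6 arrays, r was 0.570 for Cd27 with Cd70, 0.550 for Cd40 with Cd40lg and 0.392 for Tnfrsf8 with Tnfsf8. Their rho was 0.779, 0.397 and 0.308. The exact permutation p was 0.21, 0.25 and 0.48 for r, and 0.072, 0.43 and 0.57 for rho. Over the 4 pairs the adjusted p was 0.33 to 0.48 for r and 0.29 to 0.57 for rho.

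Among the TRAF adaptors, 5 were named on the array and 0 of 5 passed limma. Traf1, which modulates Cd40, Cd27 and Tnfrsf8 signals, had the largest difference. Its ratios had a lowest value of 0.30 and a highest of 0.90 on 6 aged arrays, and ran from 0.15 to 0.50 on 7 young arrays (log2 difference 0.95, 95% interval -0.02 to 1.92, adjusted p = 0.64 by limma). The Traf1 groups overlapped between 0.30 and 0.50. Traf2, the adaptor shared by most receptors of this kind, ran from 0.07 to 0.13 on 3 aged and from 0.06 to 0.09 on 4 young arrays (log2 difference 0.51). Traf4, Traf5 and Traf6 had log2 differences of -0.10, -0.51 and -0.12, and limma gave these 4 adaptors adjusted p-values between 0.89 and 0.98. Tank, a TRAF-binding regulator, had a difference of 0.02, and Traip, another TRAF-interacting protein, had too few values.

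**Figure D4:**
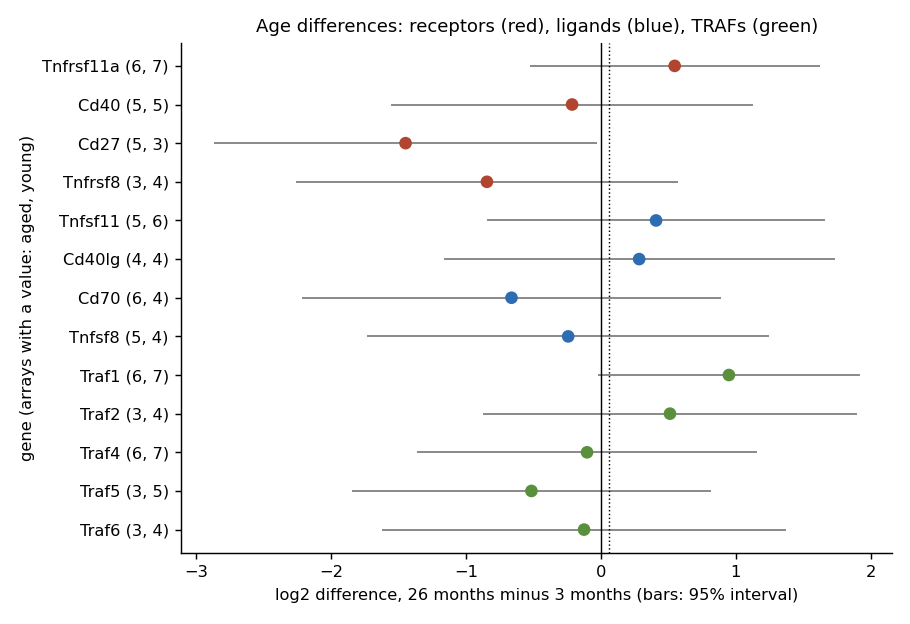
Log2 difference of the mean ratio, 26 months minus 3 months, with its 95% interval by limma, for the receptors (red), their ligands (blue) and TRAF genes (green); numbers in brackets are aged and young arrays with a value. The dotted line is the median of all 70 probes tested, 0.06, and every interval but that of Cd27 spans 0.

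The rest of the family and the survival genes downstream of TRAF signalling likewise gave 0 calls by limma. Other receptors without a death domain, Tnfrsf1b and Ltbr, had log2 differences of 0.30 and 0.08, while Tnfrsf4 and Tnfrsf11b had too few values. The death receptors Tnfrsf21 and Tnfrsf25 had 0.78 and 0.61, and Fas, Tnfrsf1a and Tnfrsf10b had too few values. Of the survival genes, which encode inhibitors of apoptosis, Birc3 and Cflar had -1.01 and -0.98 and Birc2 had 0.37, and limma gave them adjusted p-values between 0.72 and 0.96. Bcl2l1 and Xiap had too few values. By median log2 difference, the receptors stood at -0.53, their ligands at 0.02, the TRAF genes at -0.10 and the survival genes at -0.98, beside 0.06 for all 70 probes. These medians rest on 3 to 5 genes each.

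The 4 receptors did not move together in a way these arrays could resolve. Of their 6 pairs, 5 shared at least 6 arrays, and 0 of the 5 passed an adjustment over the pairs. Cd40 with Tnfrsf8 had the highest Pearson r, 0.516 over 6 arrays (exact permutation p = 0.31, adjusted p = 0.96), with a Spearman rho of 0.647 (exact permutation p = 0.18, adjusted p = 0.44). Without the 2 arrays farthest from the median its r was 0.576. Cd27 with Cd40 had r 0.392 over 7 arrays (exact permutation p = 0.38) and rho 0.703 (exact permutation p = 0.090, adjusted p = 0.44), and r was 0.01 without the 2 arrays farthest from the median. Tnfrsf11a had r between -0.07 and 0.07 with each of Cd40, Cd27 and Tnfrsf8, over 10, 8 and 7 arrays (permutation p = 0.86, 0.99 and 0.88, exact for the last 2 pairs), and rho between 0.085 and 0.192. With age group means subtracted, Tnfrsf8 with Tnfrsf11a had the highest r, 0.738 over 7 arrays (exact permutation p = 0.063, adjusted p = 0.31) with rho 0.595 (exact permutation p = 0.17), and Cd40 with Tnfrsf8 had r 0.170. When the array level was subtracted from every gene, Cd40 with Tnfrsf8 reached r 0.885 (exact permutation p = 0.0069, adjusted p = 0.035) and rho 0.886 (exact permutation p = 0.033, adjusted p = 0.17). Both genes then carry the same subtracted term over the same 6 arrays.

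The probes most like each receptor were those of highest Pearson r of log2 ratio over at least 7 shared arrays, given as a description. For Cd40 they were Cd70 (r 0.912 over 7 arrays), Tnfsf11 (0.895 over 8) and the unnamed probe 63 (0.825 over 7), out of 51 probes compared, with Spearman rho of 0.882, 0.877 and 0.898. On aged replicate 5, where Cd40 was 0.33, Tnfsf11 was 0.30, Cd70 0.19, the lymphotoxin receptor Ltbr 0.34 and Tank 0.23, each the highest ratio of that gene on any array. Among probes with 6 or more values, 17 of the 61 measured on that array had their highest ratio there, against 23 of 68 on young replicate 7 and 0 to 11 on each other array. Without aged replicate 5, r of Cd40 with Tnfsf11 was 0.789 over 7 arrays, while Cd70 shared too few arrays with Cd40.

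For Tnfrsf11a the most alike probes were Mdm2 (r 0.907 over 10 arrays), the p53-degrading ubiquitin ligase, Bcl10 (0.862 over 7), an adaptor of NF-kB signalling, and Mcl1 (0.832 over 11), a pro-survival gene of the Bcl-2 family, out of 72 compared. Their Spearman rho was 0.802, 0.709 and 0.831. Mdm2 shared the low value on aged replicate 3, with a ratio of 0.01 against 0.06 to 0.55 on the other 5 aged arrays. Without that array, Mdm2 had r 0.795 over 9 arrays, and the most alike were Bik (0.945), Casp2 (0.927) and Dffa (0.913), which are among the 14 probes that make up the array level. For Cd27 they were Birc3 (r 0.740 over 7 arrays), an inhibitor of apoptosis that binds TRAF2, the unnamed probe 39 (0.710 over 8) and Apaf1 (0.597 over 7), out of 34 compared. Birc3 had 0.20 and 0.10 on young replicates 4 and 7, the arrays where Cd27 was highest, and 0.16 on young replicate 5, where Cd27 was blank. For Tnfrsf8 only 18 probes shared 7 arrays, and the highest r, with Casp8, was 0.647.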

How the data were processed

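Total RNA was measured on 13 arrays with 100 probes. The authors deposited 1 table of linear ratios, which run from 0.01 to 4.51. That the ratio is to beta-actin was read from the values, since the pair of beta-actin spots averaged 1 on each array. The scanner and any background correction were not given in the sources used here, nor was the meaning of a blank (426 of 1248 gene cells, 34.1%). Symbols come from the platform annotation (87 gene probes named, 9 not). Its gene identifiers for the 4 receptors are not those of the rat RefSeq table, so the organism of the probe sequences was not settled, and no coordinates or sequences are printed. Signal over background is unknown, and the number of arrays limits the precision.

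Log2 ratios, with no pseudocount or further scaling, were fitted across all probes with limma 3.58.1 in R 4.3.3 (age as the only factor, two-sided). The 4 reference spots stayed out, 3 values in each group were required, and Benjamini-Hochberg adjustment covered the 70 probes tested, with a threshold of 0.05. Detection was compared by Fisher's exact test (two-sided) over 96 probes. Correlations used two-sided permutation tests, exact under 10 arrays and with 100000 resamples otherwise (scipy 1.17.1, numpy 2.4.6). The fit and the permutation test were tested on simulated data.

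The rule for the receptors uses symbols only, but the receptors and gene lists were chosen with earlier results of these data known. Named genes are the 4 receptors, their ligands, the TRAF genes, the 3 probes most like each receptor, probes past the threshold and list members with values. The genes singled out on aged replicates 3 and 5 were named after their values were seen. Alternatives covered scaling, blanks, a pseudocount of 0.02, filters, the replicate number as a block, and arrays left out.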

Additional observations from a re-analysis of the deposited data

Results flagged for a closer look

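In 23 groups of 4 to 7 values (the receptors, their ligands and TRAF genes in each age group, and Tnfrsf11a relative to the array level), 3 held a value far from the rest, by a criterion that marks about 1 in 20 groups by chance. Cd40 had a ratio of 0.33 in aged replicate 5, and the next aged array was at 0.12. On the log2 scale it did not stand apart. Tnfsf11 had a ratio of 0.30 there and 0.07 on the next aged array, and stood apart on both scales. Tnfrsf11a minus the array level in aged replicate 3 was -1.07 on the log2 scale, and the next aged array was at 1.02. The last of these measures was formed after the values had been seen.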

How the results depend on the processing

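The number of gene probes past the threshold, 1 as reported (Tnf), was 0 with reference centring, with centring on the 15 probes measured everywhere, with blanks at 0.01, by the exact permutation test and with the replicate block, and 0 to 1 with any 1 array left out (0 without aged replicate 1, 2, 3, 4 or 6 or young replicate 3, 5 or 6). None of the 4 receptors passed between the ages under any setting run. The log2 difference of Cd27 turned to 0.31 and that of Cd40 to 0.22 with blanks at 0.01, and Cd40 was 0.082 without young replicates 1 and 2. Tnfrsf11a turned to -0.26 with centring on the 15 probes and to -0.057 with quantile normalization. Tnfrsf8 stayed negative in each setting where it could be fitted. It could not be fitted with dim probes left out, without young replicates 1 and 2, or without aged replicate 1, 4 or 6. With any 1 array left out and the test still possible, the differences ran from -1.62 to -1.12 for Cd27 and -0.69 to 0.082 for Cd40. For Tnfrsf8 they ran from -0.97 to -0.58 and for Tnfrsf11a from 0.36 to 0.88. With the arrays whose removal left too few values for the test counted too, the range was -1.92 to -1.06 for Cd27. For Tnfrsf8 it was -1.08 to -0.58. The detection gap of Tnfrsf8, -7.14 percentage points, ran from -17.1 to 2.86, that of Cd27 from 33.3 to 57.1 and that of Cd40 from 0 to 28.6. With the replicate block, which uses 6 pairs and leaves out young replicate 7, Tnfrsf11a differed by 0.73 (SE 0.34, adjusted p = 0.33 by limma), Cd40 by -0.63 and Cd27, on 2 complete pairs, by -1.56 (adjusted p = 0.61). The main fit did not take the shared numbers as pairs, since the labels give no pairing. In their deviations from the group means, same-numbered arrays correlated at -0.20 to 0.36 over the tested probes, with at least 1 pair under 0.1. Over the 15 probes measured everywhere, pairs 2, 3, 5 and 6 had 0.42, 0.45, 0.67 and 0.51, and pairs 1 and 4 had -0.20 and 0.02. By the tested probes, 3 of 6 aged arrays correlated best with their own number. These values do not settle whether same-numbered arrays belong together, and a shared batch was not tested.

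Of the 5 receptor pairs, 1 passed with the array level subtracted, against 0 as deposited. The r of Cd40 with Tnfrsf11a turned to 0.174 and that of Tnfrsf8 with Tnfrsf11a to -0.023 with that subtraction. With blanks at 0.01 they were 0.079 and -0.018, and Cd27 with Tnfrsf11a was 0.672 (permutation p = 0.014, adjusted p = 0.084); with age group means subtracted the last was 0.341, Tnfrsf8 with Tnfrsf11a 0.738 and Cd40 with Tnfrsf8 0.170. The causes of these turns were not tested. Ratios of 0.02 to 0.09, as for Tnfrsf8, are only a few rounding steps wide, which limits any statement on it.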
